A study of Mus musculus with 8 samples.

Results

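Cluster 7 was 1 of 12 clusters that the authors assigned in a single-cell RNA-seq series of cultured mouse T cells, and its leading genes were those of gamma-delta T cells and of cytotoxic granules. Its members were the cells with cluster label 7 and at least 500 detected genes: 2289 of 2309 labelled cells met the gene minimum, out of 101688 cells kept in all (2.25%). The lowest kept cell had 500 genes and the highest removed cell had 497. The cells came from spleens of female mice aged 10 weeks, listed under the strain name GPR65 and labelled as CD4+ T cells. Gpr65 knockout (KO) and wild-type (WT) cells were each cultured under Th17 conditions (20 ng/ml of IL-1b, 25 of IL-6 and 20 of IL-23) or under Th22 conditions (20 ng/ml of IL-1b, 40 of IL-6 and 20 of IL-23, with 400.0 nM of FICZ, which activates the aryl hydrocarbon receptor), and were harvested on day 3. Each of the 4 groups had 2 libraries. The cultures differ by FICZ and by the dose of IL-6, whose effects cannot be told apart. The labels do not say whether the libraries of a group came from separate mice or cultures, so every p-value measures the spread between libraries, which may be technical.

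Gamma-delta T cells carry an antigen receptor built from a gamma and a delta chain in place of the alpha and beta chains of conventional CD4 and CD8 T cells. Cytotoxic lymphocytes store granzymes and perforin in granules and carry receptors shared with natural killer (NK) cells. GPR65 is a proton-sensing receptor of lymphoid and myeloid cells that raises cyclic AMP when the surroundings turn acidic.

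The cluster held between 188 and 470 cells per library, which was 1.59 to 3.30% of a library's kept cells. Because genes that define the cluster also differed between groups, its size was not compared between them. Its cells gave 8607711 UMIs (unique molecular identifiers, each standing for 1 counted RNA molecule), with library sums between 646520 and 1481279. The median cell had 3320 UMIs and 1259 genes, against 2982 UMIs and 1060 genes in the cells of all other clusters, and mitochondrial genes took a median of 2.10% against 2.16% of UMIs. No cell barcode occurred more than 1 time within the cluster in different libraries, and 48 barcodes (2.10%) also occurred in another library, against 2.36% over all cells. Doublets were not called, and 258 cells (11.3%) were among the 8% of cells with the most UMIs. Levels below are UMI counts of the cluster's cells in a library scaled to a sum of 1000000 (CPM). A difference in such a sum can come from more cells with the gene or from more UMIs per cell.

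Trdc had the largest ratio of cluster 7 to the other cells among genes at a mean of 50 CPM or more in the cluster, and the gamma constant genes were also high. Trdc, the delta constant region (chr14:54142851-54148868, + strand, mm10), was at 348.5 CPM in the lowest library, 368.3 in the median and 476.6 in the highest, with a mean of 381.7 ± 42.4 (SD, n = 8). In the other cells its mean was 1.55, and no library reached 3. The gamma constant gene Tcrg-C4 (chr13:19344558-19352756, + strand) was at 86.8, 123.5 and 160.7 CPM in the lowest, median and highest library, against a mean of 0.314 in the other cells. Tcrg-C2 had a mean of 101.8 against 0.265 and Tcrg-C1 a mean of 46.3 against 0.126. The exonic transcripts of Tcrg-C1 and Tcrg-C2 are 96.1% identical, so the split of reads between this pair is uncertain, whereas Tcrg-C4 is 72.4 and 72.7% identical to them. The 9 analysed genes of a 10-gene gamma-delta list summed to 555.5 to 843.2 CPM in the cluster and to at most 4.601 in the other cells, and 4 of the 9 were more than 2-fold higher. As the cells were clustered on their gene expression, these differences describe the cluster and were not tested. Of 2293 genes at a mean of 50 CPM or more in the cluster, 67 (2.92%) were more than 2-fold higher than in the other cells in the median library, and of 2083 genes at that level in the other cells, 17 (0.816%) were more than 2-fold lower.

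Cytotoxic granule genes formed the next group. Gzmc (chr14:56231441-56234656, - strand), a granzyme of activated cytotoxic cells, was at 98.0, 164.2 and 289.5 CPM in the lowest, median and highest library, against a mean of 1.49 in the other cells. Gzmb, the granzyme that activates caspases in target cells, had a mean of 2286 ± 401 (SD, n = 8) against 152.8. Prf1, which encodes the pore-forming protein perforin, had a mean of 66.7 against 3.33. Nkg7, a granule membrane protein, ranged from 396.5 to 727.8 against at most 60.2 in the other cells of any library. Gzma, another granzyme, varied most among them, from 6.68 to 207.0. Of 18 analysed genes in a 22-gene granule list, 7 were more than 2-fold higher in the cluster and none was more than 2-fold lower, where 2-fold counts use a pseudocount of 5 CPM. Counts of list members, for this and the other lists, have no CPM minimum, so the 2.92% above is not a like background for them. Ctsw, a cathepsin of cytotoxic cells, had a mean of 310.4 against 58.8. Gzmb and Gzmc transcripts are 77.8% identical.

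Receptors shared with NK cells were also high, and genes of an NK cell list were mixed. Klrd1, which encodes CD94, was at 157.6, 249.1 and 324.7 CPM in the lowest, median and highest library, against a mean of 5.93 in the other cells. Klrk1, which encodes the activating receptor NKG2D, had a mean of 78.6 against 0.418, and Fcer1g, a signalling adaptor of Fc and NK receptors, had 67.9 against 0.365. In all, 10 of 22 analysed genes in a 30-gene NK receptor list were more than 2-fold higher. Of the 6 analysed genes of an 11-gene NK cell list, 3 were more than 2-fold higher: Gzma, Irf8 (a mean of 122 against 32.4), both of which T cells also express, and the NK receptor gene Klre1 (5.79 against 0.298). The other 3 were low, with means of 0.471 for Klrb1c, 0.856 for Itga2 and 3.69 for the transcription factor Eomes. The list summed to 153.6 to 371.2 in the cluster and to 16.6 to 53.2 in the other cells. T cell genes were present: Cd3e, part of the CD3 complex, had a mean of 367 against 302 in the other cells.

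The conventional T cell genes were lower or mixed. Cd4 was at 23.0, 42.2 and 53.2 CPM in the lowest, median and highest library, against a mean of 108.8 in the other cells, and its levels in the 2 sets of sums did not overlap. Trac, the alpha constant region, had a mean of 186.6 against 298.0, whereas the beta constant genes Trbc1 (644 against 578) and Trbc2 (1089 against 1108) were at about the same level. Cd8a had a mean of 26.3 against 0.506, Cd8b1 of 25.2 against 10.2, and Runx3, a factor of the CD8 lineage, of 231 against 104. Some genes of other spleen cells had no UMI in any library: Ms4a1 and Pax5 (B cells), Cd14 and Flt3 (myeloid cells) and Foxp3 (regulatory T cells). A count of 0 allows up to 0.349 CPM over the cluster's sum (3 counts, counting error only). Other members of such lists were present. An 8-gene regulatory T cell list summed to 1174 to 1580 CPM, against 1415 to 1715 in the other cells. For 9 analysed genes of an 11-gene innate lymphoid cell list the sums were higher, at 677.2 to 937.8 against 251.7 to 394.3. Those of a 7-gene plasma cell list (6 analysed) were 117.5 to 162.4 against 89.8 to 123.1. The 9-gene B cell list summed to 36.5 to 69.4 in the cluster and 43.4 to 65.1 in the other cells, with Cd79b higher at 13.9 against 0.85. The 7 analysed genes of a 13-gene myeloid list summed to 12.02 to 34.4 against 18.6 to 30.6. The authors' cluster label is a number and names no cell type. The cluster was thus high in gamma-delta, granule and NK receptor genes, and the CD4 label of the input matches it only in part.

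**Figure D1:**
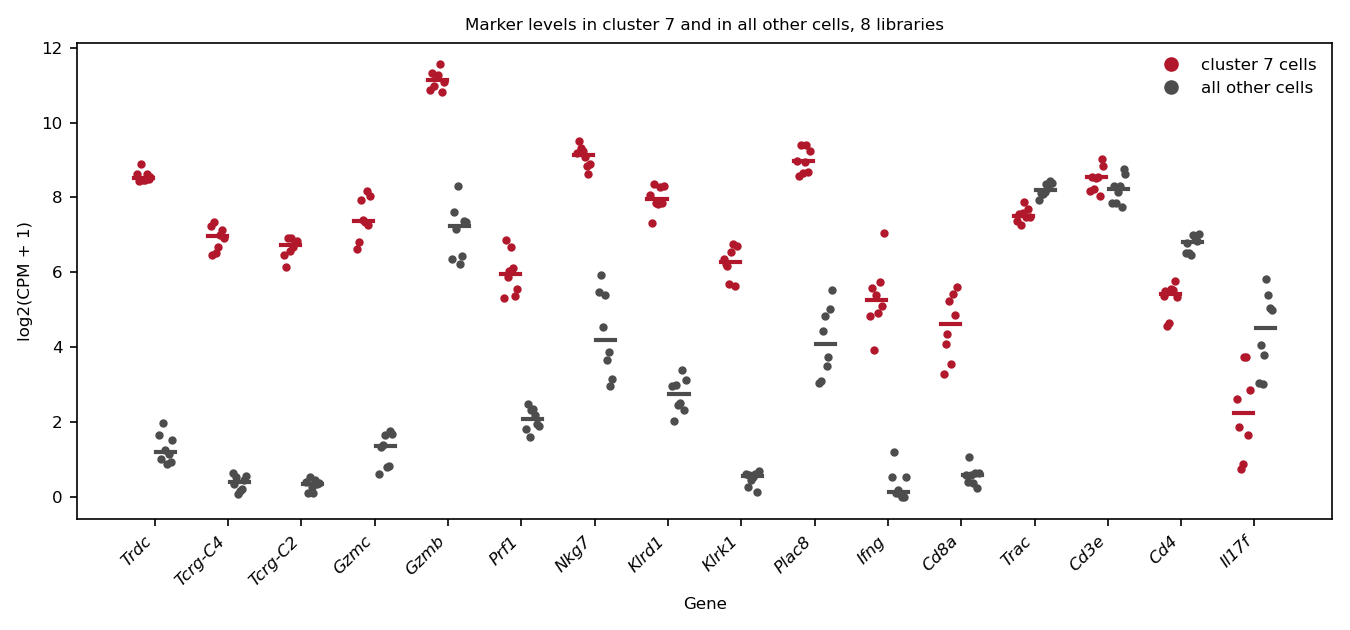
Levels of 16 genes, as log2(CPM + 1) on the vertical axis, in cluster 7 cells (red) and in all other cells (grey) of the same 8 libraries; each point is 1 library and each bar the median. Trdc, the gamma constant genes, Gzmc and Klrk1 are separated between the cell sets in every library, while Cd3e overlaps and Cd4 is lower in cluster 7.

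Beyond these lists, the 25 genes with the largest median ratio held receptors, adaptors and transcription factors. Plac8 had a mean of 518.6 ± 123 (SD, n = 8) against 20.3 in the other cells. The chemokine receptor gene Cxcr6 had 66.9 against 0.90, and the transcription factor genes Ikzf2 (Helios) and Batf3 had 62.0 against 1.37 and 149.5 against 32.8. Hopx, a homeodomain protein of effector T cells, had 84.2 against 8.77, and the adaptor Lat2 had 70.5 against 3.95. Trgv2, a gamma variable segment that was singled out after its values were seen, had 199.3 against 0.248. At the other end were Izumo1r (81.9 against 207.8), a folate receptor of CD4 T cells, Tnfrsf4 (285.2 against 647.5), which encodes the costimulatory receptor OX40, and Cd5 (185.6 against 405.8), an inhibitor of T cell receptor signalling. The lowest ratio was that of Atp6v0d2, a subunit of the vacuolar proton pump, at 17.8 against 64.6.

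The type 17 cytokine genes were lower in the cluster than in the other cells, and Ifng was higher. Il17a had a mean of 5.64 CPM against 18.8 in the other cells, Il17f 5.31 against 25.4 and Il22 4.42 against 19.4. Ifng, the interferon-gamma gene, had a mean of 47.2 against 0.31, and Ccl4, a chemokine of activated cytotoxic cells, of 164.8 against 24.1. Ccl5, another such chemokine, was not set apart, at 29.2 against 28.2. All 42 genes of an S-phase list and 50 of 52 genes of a G2/M list had a median ratio above 1, with list medians of 0.70 and 0.51 on the log2 scale. The same count was not made over all genes, so it describes these lists only. It was 16 of 20 for a glycolysis and hypoxia list and 1 of 15 for a naive and memory T cell list.

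The level of several of these genes rested on few cells. Gzma had 937 UMIs in 94 cells, of which the 10 cells with the most UMIs held 54.9%. Ifng had 413 UMIs in 107 cells, and a single cell held 35.6% of them. Gzmf, another granzyme, had 85 UMIs in 8 cells, and 56.5% lay in 1 cell. For Ccl4, 311 cells had a UMI and the top 10 cells held 34.7% of its 1422 UMIs.

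The cells were not uniform in their receptor genes. At least 1 UMI of Trdc or of a gamma constant gene was present in 1696 cells (74.1%, with 68.1 to 82.8% per library) and absent from 593. In the other clusters 0.688% of cells had one, at a median of 2982 UMIs against 3320 in cluster 7. After each cell was thinned to 1500 UMIs, which left out 153 shallower cells, the share was 54.4%, so a cell without such a UMI cannot be called a non-gamma-delta cell. The share of cells with a Trdc UMI alone was 57.27% unthinned and 37.92% thinned (95% exact binomial interval 35.86 to 40.02%, counting error only), against 0.221% of the thinned other cells.

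Cells with and without a gamma-delta UMI had similar depth, at medians of 3283 and 3453 UMIs. Gzmb was present in 75.5% of the cells with such a UMI and in 75.7% of those without. For Nkg7 the shares were 75.4% and 71.0%. Other granule genes were more frequent in the cells with such a UMI: Gzmc at 17.8% and 10.6% (higher in 7 of 8 libraries) and Gzma at 4.66% and 2.53% (6 of 8). Receptor genes of other lineages were mixed. Cd8a was present in 2.83% of the cells with a gamma-delta UMI and in 15.7% of those without, and Cd8b1 in 2.30% and 14.0%. The inhibitory NK receptor gene Klra7 was present in 0.767% and 7.76%, and Fcer1g in 8.02% and 18.0%. Trac was present in 36.0% and 54.5%, and the share was lower in the cells with a gamma-delta UMI in all 8 libraries. Cd4 was present in 11.2% and 13.7%. The beta constant gene Trbc2 was present in 91.6% and 91.4%, and Trbc1 in 68.7% and 62.7%, higher with a gamma-delta UMI in all 8 libraries. Plac8 was also higher with one, at 74.9% and 57.2%, in all 8 libraries. These splits use genes of the cells that were clustered and are given with no test.

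Co-detection in single cells followed the same lines. Of the cells with a Cd8a UMI, 40.4% had a Cd8b1 UMI, against 3.03% of the cells without Cd8a, and 18.4% had a Trdc UMI, against 59.8%. Of the cells with an Fcer1g UMI, 28.4% had a Trdc UMI, against 60.7% of those without. Of the Klra7 cells, 5.08% had a Trdc UMI. Of the cells with a Gzmc UMI, 96.2% also had a Gzmb UMI, against 71.7% of those without.

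**Figure D2:**
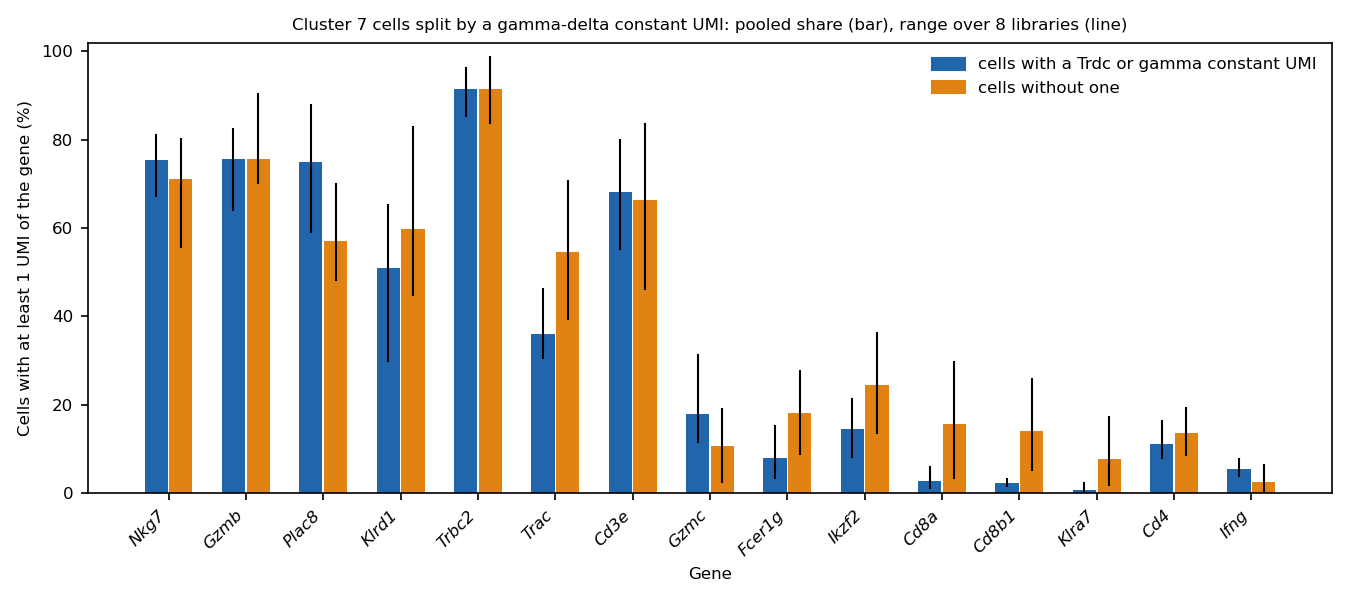
Share of cluster 7 cells with at least 1 UMI of each of 15 genes (vertical axis, percent), for the 1696 cells with a Trdc or gamma constant UMI (blue) and the 593 cells without one (orange); bars are pooled shares and lines the range over 8 libraries. The cells were not thinned. Gzmb, Nkg7 and Trbc2 are close in both sets, Cd8a, Cd8b1 and Klra7 are mostly in the cells without, and Plac8 is higher in the cells with such a UMI.

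KO was compared with WT within the cluster, to ask which genes of these cells differ when Gpr65 is missing. Gpr65 itself (chr12:98268635-98276644, + strand) was at 94.4, 79.1, 86.9 and 66.7 CPM in the 4 WT libraries (Th17 replicates 1 and 2, then Th22 replicates 1 and 2) and at 1.46, 1.34, 0.675 and 0 in the KO libraries in the same order. The labels and the gene's levels match in all 8 libraries, and its adjusted p over both culture conditions was 4.9e-15. Over both conditions, 19 of 7685 tested genes differed at an adjusted p of 0.05 (0.247%; edgeR's quasi-likelihood test with Benjamini-Hochberg adjustment), 9 higher (0.117%) and 10 lower (0.13%) in KO. That fit took the 8 libraries as independent. Th17 and Th22 libraries with the same genotype and number deviated together, so each genotype may hold only 2 independent units. The p-values over both conditions may then be too small, and a fit on such libraries summed is counted in the last section. In 14 of the 19 the KO and WT libraries did not overlap, while 220 of all tested genes (2.86%) did not overlap. Within Th17, 7 genes differed (0.0911%), 3 higher (0.039%) and 4 lower (0.052%), and within Th22, 13 did (0.169%), 5 higher (0.0651%) and 8 lower (0.104%). The 4 genes called in both cultures are 57.1% of the 7 and 30.8% of the 13.

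Genes lower in KO included members of the interferon-induced transmembrane family, small membrane proteins that restrict virus entry and lie together on chromosome 7. Ifitm1 (chr7:140967221-140969825, + strand) was at 243.5 and 237.7 CPM in KO Th17 and 985.6 and 892.9 in KO Th22, against 584.7 and 623.1 in WT Th17 and 1568 and 1440 in WT Th22. KO was below WT in both cultures, with no overlap within either, and Th22 was above Th17 in both genotypes. The log2 fold change was -1.35 ± 0.13 (SE; adjusted p = 3.5e-07) in Th17 and -0.60 ± 0.12 (adjusted p = 0.025) in Th22. Ifitm3 was at 28.5, 24.0, 58.7 and 45.2 in the KO libraries and 49.5, 43.1, 139.0 and 88.6 in the WT libraries, and its change over both cultures was -0.95 ± 0.18 (adjusted p = 0.0066). Ifitm2 had -0.29 ± 0.10 (adjusted p = 0.51), so 2 of the 3 tested family members fell, with a median change of -0.95 for the family against 0.0038 for all genes. Ifitm1 and Ifitm3 transcripts are 73.1% identical, and Ifitm2 and Ifitm3 transcripts 76.5%. With 1 library left out, the Ifitm1 call over both cultures held in all 8 fits and that in Th22 failed in 3 (without KO Th22 replicate 2 or either WT Th22 library, adjusted p up to 0.73). The Ifitm3 call failed without WT Th22 replicate 1 (adjusted p = 0.15).

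Fcer1g was at 32.9 and 32.1 CPM in KO Th17 and 57.4 and 50.3 in KO Th22, against 95.9 and 114.0 in WT Th17 and 75.0 and 85.5 in WT Th22. All 4 KO libraries were below all 4 WT libraries. The change was -1.72 ± 0.23 (adjusted p = 0.00012) in Th17 and -1.04 ± 0.19 (adjusted p = 0.012) over both cultures. Fcer1g was detected more in cells without a gamma-delta UMI, and the share of cells with such a UMI was 68.1 to 82.8% in KO and 69.1 to 78.5% in WT libraries. Among the cells with such a UMI alone, its change over both cultures was -1.22 (adjusted p = 0.13), and among those without one -0.73 (adjusted p = 0.92). The thinned share of cells with a Cd8a UMI was 1.21 to 4.63% in KO and 0.562 to 6.64% in WT. The part of cell composition in the Fcer1g change was not tested beyond these values. Without WT Th17 replicate 1 or 2 the call over both cultures was lost (adjusted p = 0.069 and 0.064). No other gene of the 11 tested NK receptors passed, and their median change was -0.33.

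A further 5 named genes fell in KO. Ap2a2, a clathrin adaptor subunit, was at 48.3, 41.4, 29.0 and 17.6 in the KO libraries and 63.4, 55.4, 67.4 and 77.6 in the WT libraries, a change of -0.97 ± 0.20 (adjusted p = 0.026). Ecm1, a secreted matrix protein of activated T cells, was at 48.3, 81.5, 72.9 and 72.9 in KO and 103.6, 96.5, 119.5 and 125.5 in WT, a change of -0.69 ± 0.15 (adjusted p = 0.031). The KO and WT libraries of both genes were separate. Lrrc8c, an ion channel subunit, changed by -0.71 ± 0.16 and Pim2, a survival kinase, by -0.67 ± 0.15 (adjusted p = 0.035 and 0.036). The cytokine gene Il24 changed by -1.82 ± 0.32 (adjusted p = 0.004). With 1 library left out, Il24 passed in all 8 fits (but not without the 8% of cells with the most UMIs), while Ap2a2, Lrrc8c, Ecm1 and Pim2 each failed in 5 or 6 fits.

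Genes higher in KO included Nupr1, which encodes a stress-induced nuclear protein. It was at 141.1, 90.8, 85.7 and 82.1 CPM in the KO libraries and at 52.6, 35.9, 17.4 and 33.7 in the WT libraries. The lowest KO library lay above the highest WT library, and the change was 1.58 ± 0.19 (adjusted p = 5.4e-06). It was the 1 called gene among 18 tested genes of an integrated stress response list, whose median change was 0.26. Mt1, a metal-binding metallothionein, was at 280.8, 434.0, 286.9 and 247.1 in KO and 181.0, 212.5, 177.1 and 212.5 in WT, a change of 0.67 ± 0.13 (adjusted p = 0.012). Cd5 was at 256.7, 239.0, 201.9 and 180.9 in KO and 154.7, 151.9, 159.7 and 139.6 in WT, a change of 0.55 ± 0.11 (adjusted p = 0.018). For Mt1 and Cd5 alike, every KO library exceeded every WT library. Cd5 was among the genes lowest in the cluster relative to the other cells. It was present in 37.5% of cells with a gamma-delta UMI and 44.35% of those without. What this adds to its change was not tested. The Nupr1 call held with each library left out, and those of Mt1 and Cd5 failed in 4 of 8 such fits each (adjusted p up to 0.15 and 0.16).

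Of the markers Trdc, Tcrg-C4, Gzmc, Klrd1 and Nkg7, the granule gene Nkg7 was the 1 that differed in KO. It was at 578.5, 727.8, 638.6 and 598.9 CPM in KO and 538.3, 458.9, 396.5 and 476.0 in WT. All 4 KO libraries were above the WT libraries, and the change was 0.48 ± 0.10 (adjusted p = 0.031). The thinned share of cells with an Nkg7 UMI was 53.7 to 58.9% in KO and 42.2 to 48.3% in WT. In the other cells that share was 2.49 to 6.74% in KO and 0.835 to 1.60% in WT, so it was higher in KO there too. Nkg7 also marks the cluster, and what this adds to its change was not tested. The Nkg7 call in cluster 7 failed in 6 of 8 fits with 1 library left out (adjusted p up to 0.28). None of the other 14 tested granule genes passed, and the list median was -0.08: Gzmb had -0.05 ± 0.15, Gzmc -0.51 ± 0.38, Gzma -1.04 ± 0.85 and Prf1 0.16 ± 0.36, with adjusted p between 0.95 and 0.99. None of the 4 tested gamma-delta receptor genes passed (Trdc 0.10 ± 0.11, adjusted p = 0.97).

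Chemokine genes had positive fold changes in 4 of 4 tested members, with a median of 1.56, and Xcl1 was the 1 that passed. Xcl1, a chemokine that attracts dendritic cells, was at 10.97, 13.4, 12.2 and 5.03 in KO and 4.64, 3.08, 0 and 0 in WT (adjusted p = 0.041), and its 55 UMIs lay in 21 cells. Its call failed in 6 of 8 fits with 1 library left out (adjusted p up to 0.33). Ccl4 was at 174.1, 363.2, 178.9 and 270.6 in KO and 63.4, 174.5, 19.6 and 74.5 in WT. The replicates of a group differed by more than 1.5 times in each group, WT Th17 replicate 2 lay within the KO range, and the change was 1.62 ± 0.59 (adjusted p = 0.79). Ccl3 had 1.49 ± 0.68 (adjusted p = 0.89), and 2.61 (adjusted p = 0.00076) without WT Th17 replicate 2.

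Isg15, an interferon-induced ubiquitin-like modifier, was the 1 of 17 tested interferon response genes that passed. It was at 21.9, 14.7, 37.1 and 34.3 CPM in KO and 12.4, 13.4, 6.52 and 10.2 in WT. The KO libraries were all above the WT libraries, by a wider margin in Th22, and the change over both cultures was 1.44 ± 0.29 (adjusted p = 0.014). Without WT Th22 replicate 1 or 2 the call was lost (adjusted p = 0.16 and 0.26). It moved opposite to Ifitm1 and Ifitm3. The promoters of these genes were then searched for an interferon element. The letters GAAANNGAAA (either strand, overlapping matches counted) were sought in the 250 bases before each RefSeq start (GRCm38.p6) and were present in 2.62% of 11976 promoters. Isg15 had 3 matches, starting 78, 72 and 66 bases before its start, Ifitm2 had 1, and neither Ifitm1 nor Ifitm3 had these letters in this window. The Ifitm1 window (chr7:140967826-140968075) lies inside the gene span given above, so the bases before the start of that span were not searched. A match is a description of the sequence only. The Isg15 window (chr4:156200819-156201068, - strand, 5′ to 3′, matches in capitals) is shown because the gene moved against the family:
Isg15: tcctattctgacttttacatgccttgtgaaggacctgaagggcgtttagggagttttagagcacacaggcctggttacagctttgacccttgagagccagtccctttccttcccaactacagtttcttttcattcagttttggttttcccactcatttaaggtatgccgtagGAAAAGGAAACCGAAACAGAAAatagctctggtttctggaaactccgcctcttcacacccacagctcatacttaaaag

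Some genes were called in 1 culture condition. In Th17, Lars2, a mitochondrial tRNA synthetase, was at 0 and 2.67 CPM in KO and 23.2 and 37.0 in WT (adjusted p = 0.0027; 0.44 without WT Th17 replicate 2). A Lars2 UMI was present in 0 and 2 cells of the KO Th17 libraries, but in 30 and 23 cells of KO Th22 and 28 and 71 of WT Th22. Its near absence was thus confined to the KO Th17 libraries. Also in Th17, Golga2, a Golgi matrix protein, rose by 1.57 ± 0.32 (adjusted p = 0.041), from 12.4 and 20.5 CPM in WT to 54.9 and 48.1 in KO. In Th22, Pdcd4, an inhibitor of translation, was at 122.9 and 90.5 in KO and 223.8 and 291.7 in WT, a change of -1.20 ± 0.17 (adjusted p = 0.00065). Also in Th22, the nuclear RNA Malat1 changed by -0.62 ± 0.10 and Tsc22d4 by -0.66 ± 0.14, while the interferon-induced gene Ifi27 changed by 0.97 ± 0.18 (adjusted p = 0.0027, 0.046 and 0.0073). Without WT Th22 replicate 2 the calls of Pdcd4 and Malat1 were lost (adjusted p = 0.1 and 0.3), and those of Golga2, Tsc22d4 and Ifi27 were lost in 5, 6 and 3 of 8 fits with 1 library left out.

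**Figure D3:**
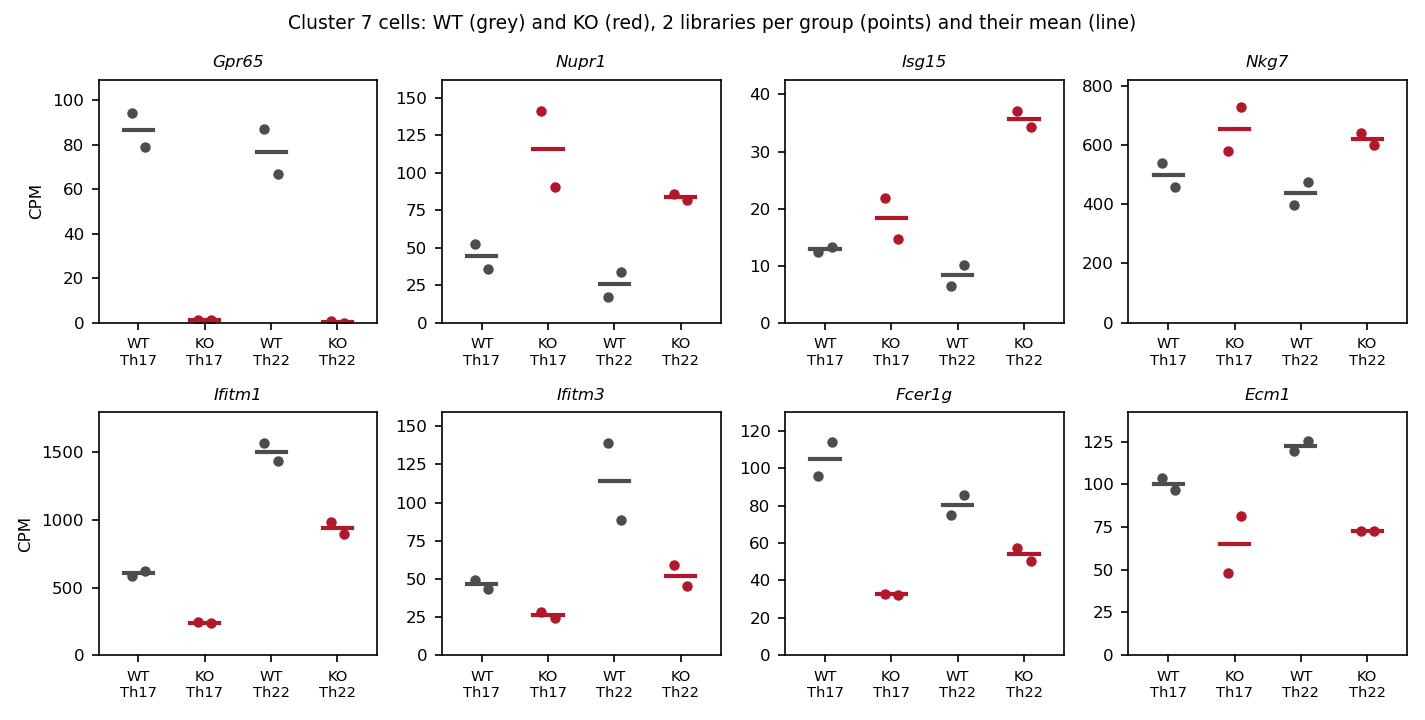
Levels in CPM (vertical axis, linear from 0) of 8 genes in cluster 7 cells of each library, WT in grey and KO in red, for Th17 and Th22; points are libraries and lines the mean of 2. Gpr65 is near 0 in KO, Nupr1, Isg15 and Nkg7 are higher in KO, and Ifitm1, Ifitm3, Fcer1g and Ecm1 are lower in KO within each culture.

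Whether the KO effect differed between the cultures was tested as an interaction. No gene passed in edgeR (0%; 429 of 7685 genes had an unadjusted p under 0.05), and DESeq2 called 0 as well. The Th17 and Th22 libraries with the same genotype and number deviated together from their group means, and with the replicate number as a block 82 genes passed (1.07%), 25 higher and 57 lower. Among them were Gzmc, whose KO effect was -1.17 ± 0.39 in Th17 and 0.05 ± 0.35 in Th22 (blocked difference 1.24 ± 0.18, adjusted p = 8.2e-08, against 0.90 with no block), and Pdcd4 (blocked difference -1.21 ± 0.19, adjusted p = 2.6e-07, against 0.17). Fcer1g, with the smaller change in Th22, also passed with the block (1.23 ± 0.27, adjusted p = 0.0024) and not without it (adjusted p = 0.29). These calls thus depend on the block.

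Th22 was compared with Th17 over both genotypes, to ask how the culture condition changed these cells. At an adjusted p of 0.05, 37 of 7685 genes differed (0.481%), 20 higher (0.26%) and 17 lower (0.221%) in Th22. The groups did not overlap in 35 of the 37, and 357 of all tested genes (4.65%) did not overlap. With the replicate block the number was 113 (1.47%), 60 higher and 53 lower, and all 37 were among them.

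The aryl hydrocarbon receptor is a ligand-activated transcription factor. Of 12 genes in a list of its targets, 10 were analysed and 3 tested, and 2 of the 3 rose. The list was chosen with earlier results of these data known, so this count is a description and not independent support. Tiparp, an ADP-ribosyltransferase that feeds back on the receptor, was at 18.3 and 16.03 CPM in KO Th17 and 29.4 and 19.5 in WT Th17, against 65.5 and 46.1 in KO Th22 and 49.97 and 56.5 in WT Th22. Every Th22 library was above every Th17 library, and the change was 1.50 ± 0.20 (adjusted p = 2.8e-05). Asb2, a ubiquitin ligase subunit, was at 19.8, 40.1, 30.9 and 22.6 in the Th17 libraries (KO 1 and 2, WT 1 and 2) and 82.4, 98.8, 91.3 and 59.6 in the Th22 libraries. It also separated without overlap, with a change of 1.68 ± 0.21 (adjusted p = 1.2e-05). The receptor gene Ahr did not pass (-0.10 ± 0.41, adjusted p = 0.98), and its common target Cyp1a1 was at most 1.57 CPM and was not tested.

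The core letters of the receptor's DNA element, GCGTG, were sought on both strands of the same 250-base windows. They were present in 42.9% of 11976 promoters, in 8 of 18 windows of genes higher in Th22 (44.4%) and in 5 of 15 of genes lower (33.3%), which is near the share in all promoters. Tiparp had 1 match, 170 bases before its start, and Asb2 had none. The Tiparp window (chr3:65528197-65528446, + strand, 5′ to 3′) is shown as the tested target gene with a match, whose reverse complement is in capitals:
Tiparp: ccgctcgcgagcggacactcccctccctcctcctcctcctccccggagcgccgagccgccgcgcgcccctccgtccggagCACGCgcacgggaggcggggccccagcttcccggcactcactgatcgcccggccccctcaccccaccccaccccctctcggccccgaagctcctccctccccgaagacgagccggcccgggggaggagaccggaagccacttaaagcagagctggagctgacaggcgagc

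Of the 3 tested Ifitm genes, 2 rose in Th22. Ifitm1, with the values given above, rose by 1.69 ± 0.12 (adjusted p = 2e-09) and Ifitm3 by 1.20 ± 0.18 (adjusted p = 0.00015), while Ifitm2 had 0.39 ± 0.10 (adjusted p = 0.094, and 0.012 with the block). Interferon response genes had positive fold changes in 17 of 17 tested members, with a median of 0.54 against -0.0015 for all genes, and Slfn1, a regulator of T cell growth, was the 1 that passed (1.38 ± 0.30, adjusted p = 0.02; lost in 5 of 8 fits with 1 library left out).

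Other genes rose in Th22 outside these lists. Lgals3, which encodes galectin-3, was at 305.7, 438.0, 298.5 and 273.1 CPM in the Th17 libraries and 640.7, 567.9, 554.0 and 520.7 in the Th22 libraries. All Th22 libraries were higher, by 0.87 ± 0.11 (adjusted p = 7.5e-06). Cldnd1, a claudin-like membrane protein, was at 70.2, 66.8, 35.6 and 45.2 in Th17 and 144.5, 122.3, 107.5 and 105.1 in Th22, a rise of 1.20 ± 0.14 (adjusted p = 7.5e-06). Cd160, a receptor of NK and cytotoxic T cells, rose by 1.04 ± 0.24 (adjusted p = 0.027). It was the 1 called gene of 11 tested NK receptors. Cd3g, a CD3 subunit, rose by 0.60 ± 0.10 (adjusted p = 0.00029). Abi3 (0.93 ± 0.20), the heme synthesis enzyme gene Cpox (0.93 ± 0.22), the exocyst gene Exoc3 (0.86 ± 0.16) and Susd3 (0.72 ± 0.15) were the remaining rises among the 10 largest. With 1 library left out, Lgals3, Cldnd1, Cd3g, Exoc3, Tiparp, Asb2, Ifitm1 and Ifitm3 passed in all 8 fits, while Cpox failed in all 8, Cd160 in 4, Abi3 in 3 and Susd3 in 2.

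Among the named genes, Ly6c2 fell most in Th22. Ly6c2, a surface marker of memory and effector CD8 T cells, was at 40.2, 57.4, 30.9 and 18.5 CPM in the Th17 libraries and 9.45, 4.19, 0 and 4.71 in the Th22 libraries, a change of -2.75 ± 0.33 (adjusted p = 7.5e-06). The cultures did not overlap in any library. Ramp1, a subunit of the receptor for the neuropeptide CGRP, was at 30.7, 48.1, 40.2 and 28.7 in Th17 and 2.70, 13.4, 8.69 and 7.06 in Th22, a change of -2.15 ± 0.31 (adjusted p = 0.00022). Dusp2, a phosphatase of MAP kinases, changed by -1.04 ± 0.16 (adjusted p = 0.00029), Ms4a4b, a T cell membrane protein, by -0.84 ± 0.12 (adjusted p = 0.00015) and Serpinb5 by -0.86 ± 0.16 (adjusted p = 0.004). All 5 of these passed with each library left out. AA467197 changed by -0.57 ± 0.10 (adjusted p = 0.0018) and Odc1, an enzyme of polyamine synthesis, by -0.53 ± 0.11 (adjusted p = 0.013; lost in 4 of 8 such fits).

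Of 21 tested lineage factors, 2 fell. Irf8 was at 132.4, 165.6, 160.9 and 163.2 CPM in Th17 and 86.4, 106.4, 81.5 and 80.8 in Th22, a change of -0.73 ± 0.14 (adjusted p = 0.0039). Id3, an inhibitor of E-protein transcription factors with a role in gamma-delta T cell development, changed by -0.69 ± 0.16 (adjusted p = 0.039). Without WT Th22 replicate 2 the Irf8 call was lost (adjusted p = 0.059), and that of Id3 was lost in 4 of 8 fits with 1 library left out (adjusted p up to 0.26). None of the 15 tested granule genes and none of the 4 tested gamma-delta receptor genes passed: Gzmb had -0.18 ± 0.15 (adjusted p = 0.82) and Trdc 0.13 ± 0.11 (adjusted p = 0.82). The share of cells with a gamma-delta UMI was 68.1 to 78.5% in Th17 and 70.0 to 82.8% in Th22 libraries.

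**Figure D4:**
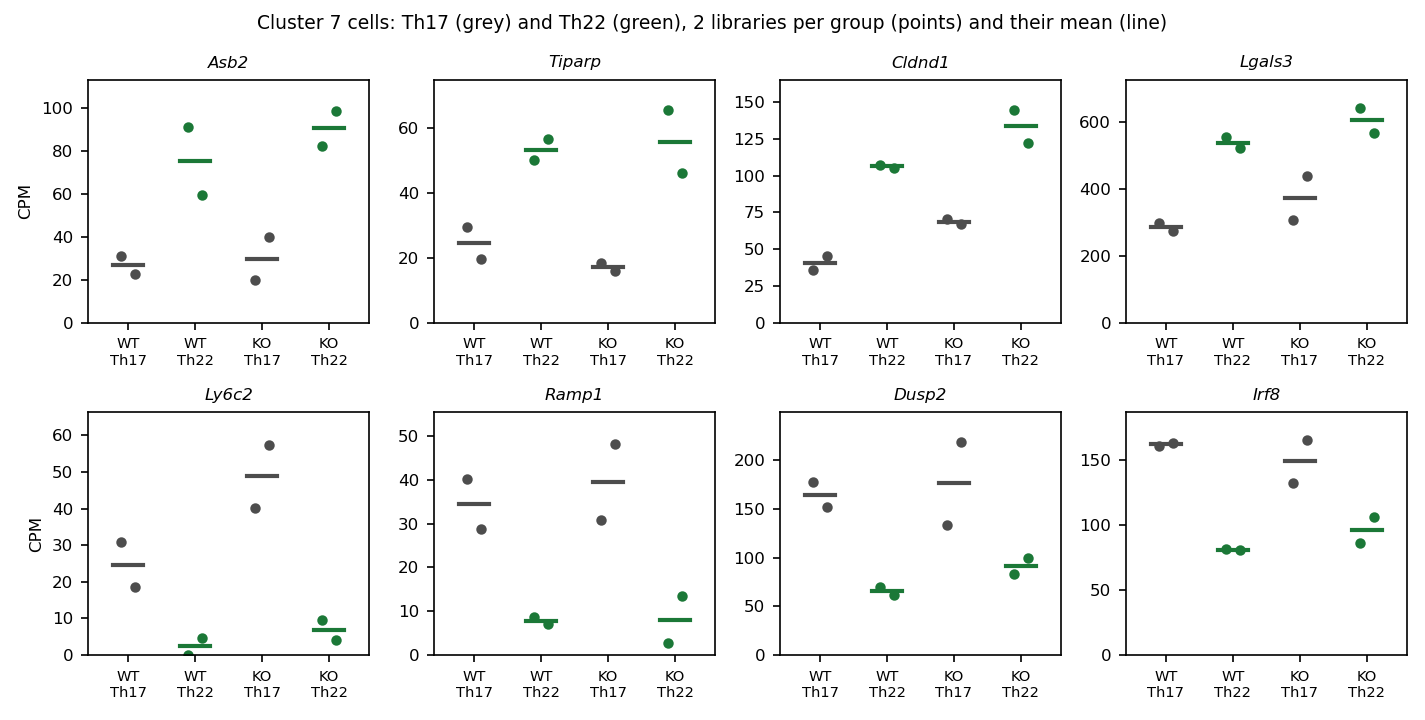
Levels in CPM (vertical axis, linear from 0) of 8 genes in cluster 7 cells of each library, Th17 in grey and Th22 in green, for WT and KO; points are libraries and lines the mean of 2. Asb2, Tiparp, Cldnd1 and Lgals3 are higher and Ly6c2, Ramp1, Dusp2 and Irf8 lower in every Th22 library than in every Th17 library.

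The KO effect in cluster 7 was then compared with that in the cells of all other clusters, with both sums of a library in 1 model and the library as a block. The effect differed for 30 of 7685 genes (0.39%). Of the 28 with a fold change in both cell sets and a gene name, 22 had a smaller change in cluster 7 and 6 a larger one, and 12 had opposite signs. The same counts were not made over all tested genes, so these describe the 28 genes only. The other cells pool all other clusters, and shifts between those clusters were not tested. Ifitm1 fell by 0.95 in cluster 7 and by 2.88 in the other cells on the log2 scale (difference 1.86 ± 0.15, adjusted p = 0.0097), and Ifitm3 fell by 0.95 and 1.90 (difference 0.94 ± 0.15, adjusted p = 9.2e-05). Both genes thus fell in both cell sets, less in cluster 7. Il7r, the interleukin-7 receptor gene, had -0.11 ± 0.15 in cluster 7 and -1.06 ± 0.24 in the other cells (difference 0.96 ± 0.10, adjusted p = 4.3e-11). Nek6, a mitotic kinase, had 0.20 ± 0.21 against 1.27 ± 0.10 (difference -1.06 ± 0.21, adjusted p = 0.0058), and Lta, which encodes lymphotoxin alpha, 0.14 ± 0.18 against 1.08 ± 0.21 (difference -0.84 ± 0.17, adjusted p = 0.0067). Gzma had -1.04 ± 0.85 against -3.46 ± 0.65 (difference 2.53 ± 0.37, adjusted p = 8e-06), with a mean of 1.12 CPM in the other cells and most of its UMIs in few cells of cluster 7. With 1 library left out, the differences of Ifitm3, Il7r and Gzma passed in all 8 fits, that of Ifitm1 failed without WT Th22 replicate 2 (adjusted p = 0.094), and those of Nek6 and Lta failed in 2 fits each (adjusted p up to 0.095 and 0.11). Of the 19 genes called in cluster 7, 12 (63.2%) were also called in the other cells, where 401 of 13351 tested genes were called. The 12 are 2.99% of those 401. The sums of the other cells are deeper, so the numbers of calls are not comparable.

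The Th22 effect also differed for 30 genes (0.39%), 15 with a higher and 15 with a lower fold change in cluster 7 (0.195% each). Lgals3 rose in cluster 7 by 0.87 ± 0.11 and had -0.08 ± 0.16 in the other cells (difference 0.99 ± 0.11, adjusted p = 3.8e-05). Ms4a4b fell in cluster 7 by 0.84 on the log2 scale and had -0.12 ± 0.09 in the other cells (difference -0.72 ± 0.11, adjusted p = 0.00085). These differences are in genes that changed in cluster 7. Ramp1 fell in both, by 2.15 in cluster 7 and 1.04 in the other cells (difference -1.14 ± 0.26, adjusted p = 0.024). Tmem176a, a membrane protein gene, had -0.36 ± 0.25 in cluster 7 and rose by 1.13 ± 0.14 in the other cells (difference -1.52 ± 0.30, adjusted p = 0.0026). Cd7, a receptor of T and NK cells, had -0.32 ± 0.20 against 0.76 ± 0.13 (difference -1.07 ± 0.23, adjusted p = 0.01). Cd8b1 had 0.70 ± 0.23 against -0.34 ± 0.10 (difference 1.05 ± 0.24, adjusted p = 0.018). With 1 library left out, the difference of Lgals3 passed in all 8 fits, those of Ms4a4b and Tmem176a failed without KO Th17 replicate 1 (adjusted p = 0.056 and 0.092), and those of Ramp1, Cd7 and Cd8b1 failed in 6, 5 and 5 fits. Of the 37 genes called in cluster 7, 22 (59.5%) were also called in the other cells, where 252 of 13351 tested genes were called. The 22 are 8.73% of those 252.

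**Figure D5:**
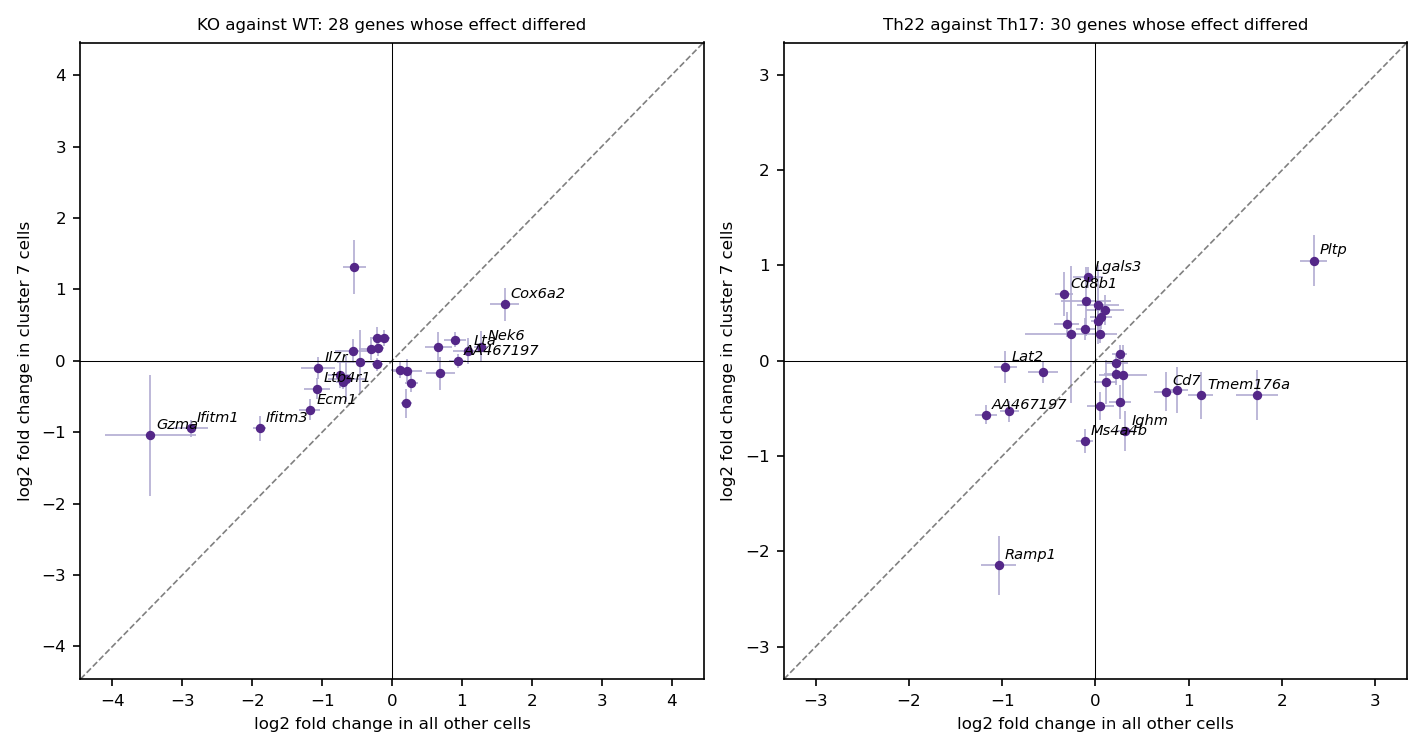
Log2 fold change in cluster 7 cells (vertical axis) against that in all other cells (horizontal axis) for the genes whose effect differed between them, 28 for KO against WT (left) and 30 for Th22 against Th17 (right); lines are standard errors and the dashed line marks equal changes. On the left, Gzma, Ifitm1 and Ifitm3 lie nearer 0 in cluster 7; on the right, Lgals3 and Ms4a4b change in cluster 7 and lie near 0 in the other cells.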

How the data were processed

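Single-cell libraries were made with the 10x 3′ v3 kit, per the labels' protocols, and processed with Cell Ranger 5.0.1 and Seurat on mm10, per the submitters' processing notes. The deposited values are raw UMI counts per gene and cell (16649 genes, 104660 cells), and the authors deposited cluster labels, the library of each cell, its totals, the percent of its UMIs from mitochondrial genes and cell cycle scores, which were not used here. Cells under 500 genes were left out. Counts of cluster 7 cells were summed per library and fitted with edgeR 4.0.16 in R 4.3.3 (TMM scaling, expression filter on the 4 groups, robust quasi-likelihood test, Benjamini-Hochberg adjustment over 7685 genes). KO and Th22 effects over both levels of the other factor came from additive models, and the difference from other cells from a model with the library as a block. Printed CPM values are of the cluster's sum, with no TMM scaling.

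The members and gene lists were chosen with earlier results of these data known. Named genes were the 25 highest and 10 lowest ratios at 50 CPM or more, the 10 largest rises and falls past each test at 20 or more with no overlap between the sides, up to 4 members of each described list, and a fixed set of receptor, granule and cytokine genes. Lgals7, Rgs16 and unnamed gene models were called but not described. Some genes named by this rule are not reported here. The Th17 and Th22 libraries with the same genotype and number had deviations correlated at 0.60 (KO) and 0.25 (WT) over 2293 genes, and the number was taken to pair them. The labels do not state what it marks.

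Shares of cells were also computed after thinning to 1500 UMIs. Alternatives were DESeq2 1.42.0, no expression filter, thinned cells, fewer high-UMI cells, a replicate block, summed libraries and each library left out. On simulated counts with independent libraries, changes were placed only in genes at a mean of 50 CPM or more. Of 100 such 2-fold changes, 83 were recovered for KO against WT in Th17 (7549 genes run). Over both cultures 100 of 100 were recovered (7660 genes run), and for the interaction 52 of 100 (7637 genes run). These runs also called 8, 12 and 6 unchanged genes. Recovery at lower levels, or with paired libraries, was not simulated. Replicates of each group differed by more than counting noise. Gene positions are GENCODE vM21 on GRCm38, and promoters are RefSeq.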

Additional observations from a re-analysis of the deposited data

Results flagged for a closer look

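Of the genes called within cluster 7, 8 had an effect that differed from that in the other cells by the test of the difference. For KO against WT these were Ifitm1 (difference in log2 fold change 1.86), Ifitm3 (0.94) and Ecm1 (0.53), all of which fell in both cell sets and fell less in cluster 7. For Th22 against Th17 they were Lgals3 (0.99), whose rise was in cluster 7 with a fold change near 0 in the other cells, Ms4a4b (-0.72) and Ramp1 (-1.14), which fell more in cluster 7, and AA467197 (0.63) and the polyamine synthesis gene Odc1 (0.40), which fell less. The differences for Ifitm3, Lgals3 and AA467197 passed with each of the 8 libraries left out in turn.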

How the results depend on the processing

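No called gene changed direction under the alternatives run, but the counts of calls moved. Without the expression filter, KO against WT called 24 genes in Th17, 28 in Th22 and 44 over both, Th22 against Th17 85, and the interaction 16. On cells thinned to 1500 UMIs the KO counts were 4, 8 and 6, the interaction 1, and the differences from other cells 12 (KO) and 11 (Th22). DESeq2 called 8 in Th22, 10 over both cultures and 24 for Th22 against Th17. That comparison gave 24 without the 8% of cells with the most UMIs. With same-numbered libraries of a genotype summed over the cultures, KO over both gave 12. The replicate block gave 113 for Th22 against Th17 and 82 for the interaction, and 8, 15 and 19 for the KO comparisons. There the numbers are only shared, since same-numbered KO and WT libraries had correlations of -0.25 in Th17 and -0.32 in Th22. Chosen after seeing the data, cells with a gamma-delta UMI alone gave 8 for KO over both and 2 for the interaction, and cells without one gave 1, 5, 1 and 7 for KO in Th17, in Th22, over both and for Th22 against Th17, from fewer cells.

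Leaving out 1 library gave 2 to 15 calls for KO in Th17 (2 without WT Th17 replicate 2; 11, 14 and 15 without KO Th17 replicate 2, KO Th22 replicate 1 and KO Th22 replicate 2), 3 to 19 in Th22 (4 and 3 without WT Th22 replicates 1 and 2) and 9 to 24 over both (10, 11, 9 and 11 without WT Th17 replicates 1 and 2 and WT Th22 replicates 1 and 2). For Th22 against Th17 the range was 21 to 67 (67 without KO Th22 replicate 2, 21 without WT Th17 replicate 1 or WT Th22 replicate 2), and for the interaction 0 to 8. The difference from other cells ranged from 9 to 61 for KO (61 without KO Th22 replicate 2, 9 without WT Th17 replicate 2) and from 7 to 63 for Th22 (63 without KO Th22 replicate 1, 7 without WT Th22 replicate 2). The cause was not tested. In every leave-one-out, 5 of the 19 KO calls and 17 of the 37 Th22 calls remained. Under all alternatives that gave a value for the gene, the added subsets of cells included, 2 and 8 remained. The 2 KO calls were Gpr65 itself and an unnamed gene model, so no other KO change described here held throughout. Il24 was lost without the 8% of cells with the most UMIs and in both subsets, Serpinb5 on thinned cells and in cells without a gamma-delta UMI, and Nupr1, Ifitm1, Cldnd1, Dusp2, Exoc3, Lgals3, Ms4a4b and Tiparp in that last subset. The share of cells with a Trdc UMI was 37.92% thinned to 1500 UMIs, 57.27% unthinned and 31.9% thinned to 1000.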
